A study of Homo sapiens with 14 samples.

Results

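The 29 genes described here are direct transcriptional targets of p53, chosen by symbol, and all 29 are listed among the 44591 genes of the LNCaP table and the 24199 features of the DU145 table. LNCaP is an androgen-responsive human prostate cancer line with wild-type p53, and DU145 is an androgen-independent prostate cancer line with mutant p53. LNCaP cells were grown in RPMI-1640 with 10% serum, and the LNCaP-ENZ line was kept in 20 µM enzalutamide, an antiandrogen drug, for 30 days by the text of the series and then without interruption as a resistant line. There was 1 library of LNCaP and 1 of LNCaP-ENZ. DU145 cells were grown in DMEM with 10% serum and carried a lentiviral short hairpin RNA, either a control hairpin (shCON, 3 libraries) or one against PAX6 (shPAX6, 3 libraries). Both DU145 groups are puromycin-selected stable subclone lines, and which PAX6 hairpin the shPAX6 libraries carried is not given in the sources used here. Nothing states that the 3 libraries of a group came from separate cultures, so p-values measure only the spread between these libraries.

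The transcription factor p53 is held low in unstressed cells by MDM2, a ubiquitin ligase that marks it for degradation and that is itself a p53 target. DNA damage and other stresses free p53 from MDM2, and the protein then binds its response elements and turns on genes that stop the cell cycle, repair DNA, trigger apoptosis, tune redox state and mitochondria, and feed back on p53 itself. Tumours with mutant p53 usually lose this induction, although many of the same genes keep a basal expression through other factors.

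A p53 response element is built of 2 decamer half-sites, each with a central C(A/T)(A/T)G between purines on the left and pyrimidines on the right. The GRCh37 sequence within 3000 bases on either side of each gene's start was searched for the element with 0 bases of spacer, both centres intact and at most 2 mismatches at the 12 flanking positions. The element reads the same on both strands, so 1 strand was searched. Of the 29 target genes, 13 (44.8%) held a match, and 539 (2.8%) of the 19220 protein-coding genes listed for LNCaP did. A match is a description of the sequence, and binding was not measured. The matches with fewest mismatches in genes at least 1.5-fold lower in LNCaP-ENZ (RRM2B, which also held one, is not shown) and in GADD45A, the target nearest to the threshold in DU145, are written 5′ to 3′ on the forward strand with the centres in capitals:
CDKN1A: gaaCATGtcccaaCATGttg
CCNG1: gcaCAAGcccaggCTAGtcc
FAS: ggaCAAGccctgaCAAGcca
GDF15: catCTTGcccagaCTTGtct
PLK2: gggCAAGtccaggCATGttt
GADD45A: gaaCATGtctaagCATGctg

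The PLK2 element (chr5:57758101-57758120), 2145 bases before the start of the gene and outside it, had 0 mismatches. The CCNG1 element (chr5:162864932-162864951, intron, 365 bases past the start) and the GADD45A element (chr1:68152458-68152477, intron, 1608 bases past the start) had 1 mismatch each. The FAS element (chr10:90751066-90751085) overlapped an exon 760 bases past the start, with 2 mismatches. The CDKN1A element (chr6:36644226-36644245), which overlapped an exon at the most upstream annotated start, also had 2. The GDF15 element (chr19:18496118-18496137), 642 bases before the start used by the authors' table and in an intron of the longer model in the annotation, had 2 mismatches as well.

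The comparison of LNCaP-ENZ with LNCaP asked how the p53 targets stood in a line kept in enzalutamide. In these 2 libraries the targets were mostly lower. Of the 27 target genes with a mean of at least 1 CPM (counts scaled to the library total), 12 (44.4%) were at least 1.5-fold lower in LNCaP-ENZ, where 24.1% of the 14767 genes at that level were, and 0 were at least 1.5-fold higher, where 6.49% of those genes were. At 2-fold, 6 of the 27 (22.2%) were lower, beside 9.57% of all genes. The median log2 ratio of CPM + 0.1 over the 27 genes was -0.54, and it was -0.15 over all 14767. RRM2B, TP53I3, PHLDA3, CCNG1, PLK2 and FAS were the 6 genes at least 2-fold lower. With 1 library a group there is no replicate check, and the 95% intervals below are exact Clopper-Pearson intervals from the split of the counts, which cover counting error only.

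**Figure D1:**
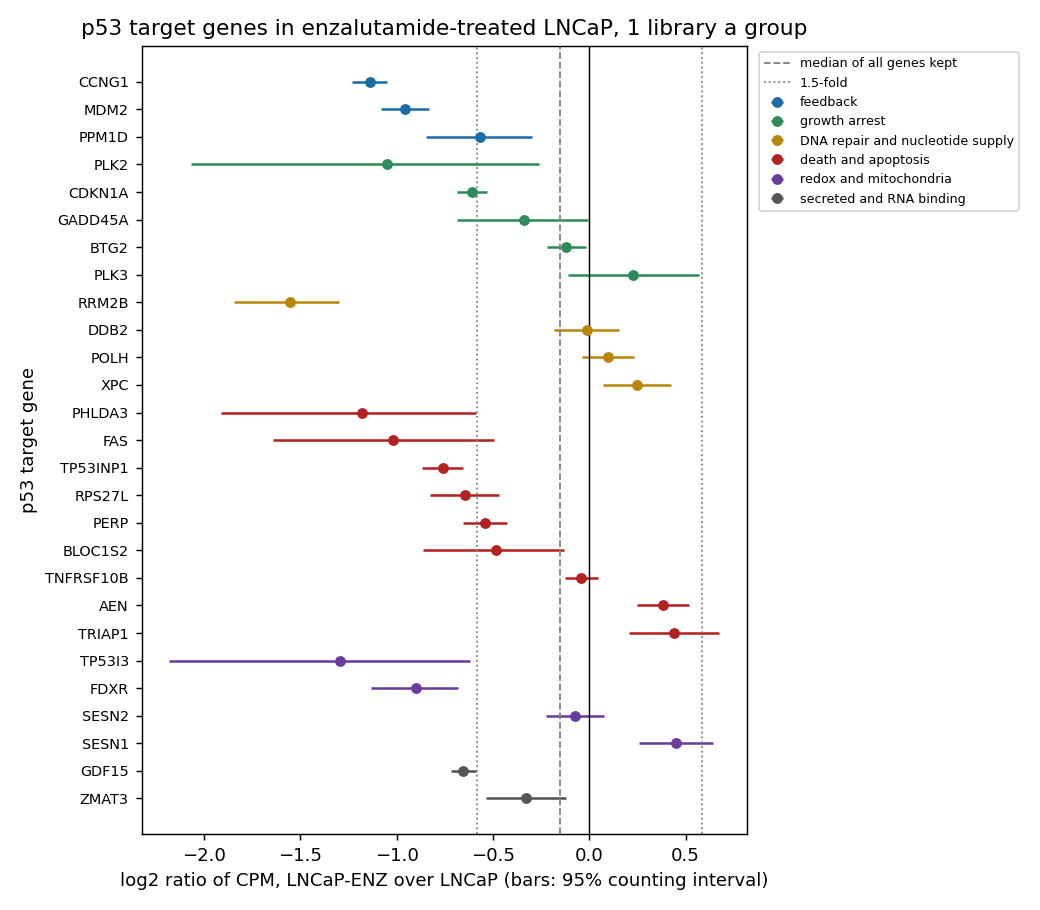
Log2 ratio of CPM in LNCaP-ENZ over LNCaP (x axis) for the 27 p53 target genes with a mean of at least 1 CPM (y axis), coloured by role, with 95% counting intervals as bars and 1 library a group. Of the points, 12 lie beyond the dotted 1.5-fold line on the left and 0 beyond the one on the right, and the dashed line marks the median of all genes at -0.15.

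Library totals were 20468001 counts in LNCaP and 17945722 in LNCaP-ENZ, and the small nuclear RNA RN7SK alone took 12.3% and 13% of them. Because the median of all genes lay at -0.15, the members were also read relative to it. With that median set to 0, 9 of 27 (33.3%) were at least 1.5-fold lower, beside 17.4% of all genes, and 2 (7.41%), SESN1 and TRIAP1, were at least 1.5-fold higher, beside 11.3%. CDKN1A, GDF15 and RPS27L were the 3 that no longer reached 1.5-fold. The line's identity was clear from its markers, with 11374 and 10025 counts of HOXB13. Of the 8 LNCaP markers, 3 (37.5%) were at least 1.5-fold lower and 0 higher, beside 24.1% and 6.49% of all genes. Their log2 ratios had a median of -0.31 and ran from -1.68, for TMPRSS2, which androgen induces, to 0.14. Leukocyte markers summed to 56 and 70 counts over 5 genes. Stromal and endothelial markers summed to 804 and 261 counts over 5 genes, nearly all of them from COL1A1 (456 and 231) and VWF (345 and 27). COL3A1 and DCN had 0 counts in both libraries. Both libraries come from a cultured cell line, and the source of these counts was not tested. In bulk RNA, fewer expressing cells and less RNA per cell cannot be told apart.

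All 3 feedback genes had intervals below 0, as did 42.3% of all genes at or above 1 CPM. MDM2, on chromosome 12 from 69201952 to 69239324, had 1672 counts (81.7 CPM) in LNCaP and 755 (42.1 CPM) in LNCaP-ENZ, a log2 ratio of -0.96 (95% interval -1.08 to -0.83). CCNG1, cyclin G1, which brings a phosphatase to MDM2, had 3357 and 1336 counts (chromosome 5, 162864577 to 162872022), a log2 ratio of -1.14 (-1.23 to -1.05). PPM1D, the WIP1 phosphatase that switches off p53 and its upstream kinases, had 300 and 177 counts, for a log2 ratio of -0.57, just short of 1.5-fold. MDM4, the MDM2-related inhibitor of p53, had 2474 and 1454 counts, a log2 ratio of -0.58 (-0.67 to -0.48), within 1.5-fold. The p53 protein was not measured.

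Among the 5 growth arrest genes, 2 (40.0%) were at least 1.5-fold lower, beside 24.1% of all genes. CDKN1A, which encodes the cyclin-dependent kinase inhibitor p21 (chromosome 6, 36644237 to 36655116), had 3778 and 2173 counts, a log2 ratio of -0.61 (-0.68 to -0.53), or 1.52-fold lower. PLK2, a stress-induced polo-like kinase, had only 40 and 16 counts, so its log2 ratio of -1.05 carried a wide interval (-2.07 to -0.26). GADD45A, a growth arrest and DNA damage-inducible protein, had 181 and 125 counts, for a log2 ratio of -0.34 (-0.68 to -0.01). BTG2, an antiproliferative partner of the mRNA deadenylase complex, was close to even, at 1745 and 1409 counts, for a log2 ratio of -0.12. PLK3, a second stress-responsive polo-like kinase, had 143 and 147 counts, for a log2 ratio of 0.23 with an interval that held 0 (-0.11 to 0.57).

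The 4 genes of DNA repair and nucleotide supply were split. RRM2B, on chromosome 8 from 103216729 to 103251346, encodes the p53-induced small subunit of ribonucleotide reductase, which makes deoxynucleotides for repair. It had 490 counts in LNCaP and 145 in LNCaP-ENZ, a log2 ratio of -1.56 (-1.84 to -1.30), or 2.94-fold lower, the lowest ratio of the 27 genes. The other three repair genes were within 1.5-fold. DDB2 and XPC, which recognise damage for nucleotide excision repair, had log2 ratios of -0.01 (608 and 528 counts) and 0.25 (526 and 547 counts). POLH, the translesion DNA polymerase eta, had 950 and 891 counts, for a log2 ratio of 0.10 (-0.04 to 0.23).

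Of the 9 death and apoptosis genes at or above 1 CPM, 4 (44.4%) were at least 1.5-fold lower, beside 24.1% of all genes. PHLDA3, which blocks AKT at the membrane, had 75 and 28 counts, a log2 ratio of -1.18 (-1.91 to -0.59). The death receptor FAS had 90 and 38 counts, a log2 ratio of -1.02 (-1.64 to -0.49). TP53INP1, a nuclear stress protein that promotes cell death and autophagy, had 2107 and 1089 counts, and its log2 ratio was -0.76 (-0.87 to -0.66). RPS27L, a ribosomal protein paralog, had 717 and 402 counts, for a log2 ratio of -0.64. PERP, a desmosomal protein, and BLOC1S2, a lysosome biogenesis subunit, were lower by less than 1.5-fold, with log2 ratios of -0.54 and -0.49.

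TNFRSF10B, the TRAIL receptor DR5, had 2307 and 1966 counts, for a log2 ratio of -0.04 (-0.13 to 0.05), whereas the death receptor FAS was 2.03-fold lower. AEN, a nuclease that digests DNA in apoptosis, was higher, with 827 and 946 counts, for a log2 ratio of 0.38 (0.25 to 0.52). TRIAP1, a mitochondrial protein that restrains apoptosis, was higher too, with 279 and 332 counts, for a log2 ratio of 0.44 (0.21 to 0.68). EDA2R, a receptor of the tumour necrosis factor family, had 0 counts in both libraries, so up to 0.147 CPM in LNCaP and 0.167 CPM in LNCaP-ENZ would have gone unseen.

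Redox and mitochondrial genes were divided between the oxidoreductases and the sestrins. TP53I3, a quinone oxidoreductase, had 59 and 20 counts, a log2 ratio of -1.30 (-2.18 to -0.62). FDXR, the ferredoxin reductase of mitochondria, had 519 and 243 counts, a log2 ratio of -0.90 (-1.13 to -0.68). SESN1 and SESN2, sestrins that hold back mTORC1 signalling, had log2 ratios of 0.45 (415 and 497 counts) and -0.07 (784 and 653 counts). SPATA18, a mitochondrial quality control protein, had 0 counts in LNCaP and 1 in LNCaP-ENZ, at or under the floor of 3 counts.

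GDF15, a secreted member of the TGF-beta family (chromosome 19, 18496770 to 18499987), had the highest level of the 29 genes, 204 TPM (length-scaled counts) in LNCaP and 122 TPM in LNCaP-ENZ, from 5602 and 3123 counts. Its log2 ratio was -0.65 (-0.72 to -0.59), or 1.57-fold lower. ZMAT3, an RNA-binding zinc finger protein, had 470 and 328 counts, for a log2 ratio of -0.33 (-0.54 to -0.12). Over the 27 genes, 18 (66.7%) had an interval wholly below 0, beside 42.3% of all genes, and 4 (14.8%) one wholly above 0, beside 21.6%. A response element match was present in 6 of the 12 genes at least 1.5-fold lower (CCNG1, CDKN1A, FAS, GDF15, PLK2 and RRM2B) and in 5 of the 15 within 1.5-fold. Several of these genes overlap another gene on the opposite strand. Among those at least 1.5-fold lower, CDKN1A overlaps DINOL, MDM2 CPM, FAS ACTA2, TP53I3 FAM228B, RPS27L LACTB and TP53INP1 NDUFAF6. Among those within 1.5-fold, XPC overlaps XPC-AS1, POLH GTPBP2 and TRIAP1 another protein-coding gene over 2421 bases. No source says that reads were counted by strand, so those of such pairs cannot be told apart.

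Of 27 further p53 targets at or above 1 CPM, 5 (18.5%) were at least 1.5-fold lower and 1 (3.70%) higher, shares below the 24.1% and 6.49% of all genes, and their median log2 ratio was -0.24, beside -0.15. KITLG, the ligand of the KIT receptor, had 53 and 5 counts (log2 ratio -2.83), and BBC3 and PMAIP1, which encode the apoptosis inducers PUMA and NOXA, had log2 ratios of -1.27 (113 and 40 counts) and -1.04 (82 and 34 counts). TGFA, a growth factor, was the 1 that was higher, with 56 and 98 counts (0.97). Of 16 regulators of p53, MDM4 included, 4 (25.0%) were at least 1.5-fold lower, near the share of all genes, and 0 higher, among them the kinases HIPK2 (-0.83) and ATM (-0.67) and the family member TP73 (-0.72).

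Cell cycle genes that p53 represses through p21 and the DREAM complex lay on both sides. Of 26, 6 (23.1%) were at least 1.5-fold lower and 6 (23.1%) higher, beside 24.1% and 6.49% of all genes. CENPE, TOP2A and BUB1, which act in mitosis, had log2 ratios of -1.96, -1.22 and -0.81. MCM5, MCM3 and MCM7, subunits of the replicative helicase, had 1.06, 0.84 and 0.76, and the other three MCM genes of the list were also at least 1.5-fold higher.

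**Figure D2:**
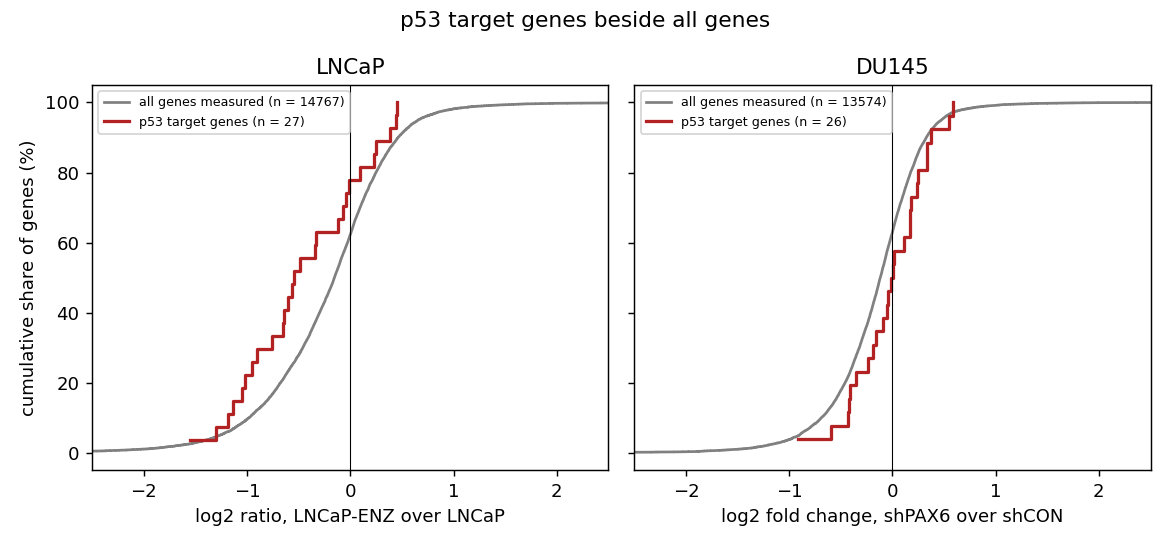
Cumulative share of genes (y axis, %) by log2 ratio in LNCaP-ENZ over LNCaP (left) and by log2 fold change in shPAX6 over shCON (right), for all genes measured (grey) and the p53 target genes (red). The red line lies to the left of the grey one over most of the left panel, with medians of -0.54 and -0.15, and slightly to its right over most of the right panel, with medians of -0.0038 and -0.117.

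The DU145 comparison asked what lowering PAX6 did to the same genes where p53 is mutant. PAX6 had 0.839, 1.23 and 1.57 in the shCON libraries and 0.0153, 0.274 and 0.0778 in the shPAX6 libraries, in values treated as FPKM, whose depth is unknown. Its log2 fold change was -2.69 (limma, Benjamini-Hochberg adjusted p = 0.054) and the groups did not overlap. PAX6 overlaps ELP4 on the opposite strand. The androgen-related markers KLK3, KLK2, TMPRSS2, FOLH1 and HOXB13 were at most 0.058 FPKM in any library, and leukocyte markers summed to between 0.436 and 0.922 FPKM. Of the DU145 markers, VIM and CD44 averaged 1021 and 51.0 FPKM in shCON, and KRT5 was listed at 0 in every library. The epithelial cadherin gene CDH1 averaged 6.14 ± 0.84 FPKM in shCON and 1.26 ± 0.53 FPKM in shPAX6 (SD, n = 3 each). Its log2 fold change was -2.28 (limma, adjusted p = 0.033). With the label number as a block its limma adjusted p was 0.17, in a fit that called 0 of all features. The shPAX6 library numbered 1 stood apart, with an FPKM sum of 570790 where the other five ran from 448901 to 503696.

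In DU145 no p53 target gene passed the test. Of the 26 that averaged 0.5 FPKM or more, 0 were higher and 0 lower at a limma adjusted p under 0.05, beside 0.177% and 1.02% of the 13574 features tested. At an unadjusted p under 0.05 there were 5 of 26 (19.2%), beside 18.3% of all features. Fold changes were split evenly, with 13 genes above 0 and 13 below, and their median log2 fold change was -0.0038, beside -0.117 for all features. The groups did not overlap for 6 genes that were higher in shPAX6 (23.1%, beside 6.70% of all features) and for 3 that were lower (11.5%, beside 20.0%). For a single gene the exact two-sided permutation test of 3 libraries against 3 cannot give a p under 0.1.

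The growth arrest gene GADD45A came nearest to the threshold. It had 37.1, 43.8 and 33.5 FPKM in shCON and 55.5, 55.2 and 60.5 FPKM in shPAX6, a log2 fold change of 0.59 with a standard error (SE) of 0.14 (limma, adjusted p = 0.092). Every shPAX6 value lay above every shCON value. At an adjusted p under 0.1 it was the 1 target of 26 (3.85%), beside 4.34% of all features. Without shPAX6 replicate 1 its log2 fold change was 0.61 (limma, adjusted p = 0.041), the 1 call among the 26 targets in that fit, in which 1.47% of all features were called higher. Leaving out each of the other libraries gave GADD45A an adjusted p of 0.051 to 0.45.

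CDKN1A, of the same role, lay on the other side. It had 36.6, 38.6 and 40.7 FPKM in shCON and 29.1, 30.7 and 30.7 FPKM in shPAX6, a log2 fold change of -0.35 (SE 0.12, limma adjusted p = 0.18). Its groups did not overlap, but after a correction for GC content in each library, which also moved other targets, the log2 fold change was -0.04 and the groups overlapped. Of the other growth arrest genes, PLK3 had 3.55, 4.65 and 4.57 FPKM in shCON and 5.46, 5.49 and 5.08 FPKM in shPAX6, without overlap (log2 fold change 0.33, limma, adjusted p = 0.39). PLK2 and BTG2 overlapped between groups, with log2 fold changes of 0.01 and -0.16.

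Among the death and apoptosis genes, TRIAP1 had the highest fold change. It had 27.2, 23.8 and 22.5 FPKM in shCON and 40.4, 33.0 and 34.1 FPKM in shPAX6, a log2 fold change of 0.54 (SE 0.14, limma adjusted p = 0.11). RPS27L (log2 fold change 0.33) and BLOC1S2 (0.18) also had groups that did not overlap, although the highest shCON value and the lowest shPAX6 value of BLOC1S2 both rounded to 24.2 FPKM. The groups of both genes overlapped after the GC correction. TP53INP1 was low throughout, at 0.771, 0.722 and 0.663 FPKM in shCON and 0.181, 0.548 and 0.344 FPKM in shPAX6, a log2 fold change of -0.92 (SE 0.37, limma adjusted p = 0.25) with groups apart. PHLDA3 (-0.41), FAS (0.23), PERP (0.25), TNFRSF10B (0.02) and AEN (-0.04) overlapped between groups.

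The damage sensor DDB2 varied little within each group. Its shCON values were 22.0, 22.1 and 22.2 FPKM and its shPAX6 values 28.3, 27.3 and 30.3 FPKM, so that the groups lay apart with a log2 fold change of 0.37 (SE 0.12, limma adjusted p = 0.17). XPC, its partner in damage recognition, lay apart in the other direction, with 9.67, 8.79 and 10.5 FPKM in shCON and 5.70, 8.56 and 7.49 FPKM in shPAX6 (log2 fold change -0.42, limma, adjusted p = 0.30). The groups of XPC overlapped after the GC correction. POLH had 8.54, 8.10 and 8.82 FPKM in shCON and 3.09, 9.19 and 6.08 FPKM in shPAX6, a log2 fold change of -0.60 on overlapping groups. RRM2B, the gene lowest against parental cells in LNCaP-ENZ, had a log2 fold change of -0.02, with a 95% interval of -0.80 to 0.77.

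The feedback genes MDM2 (log2 fold change 0.11, 95% interval -0.54 to 0.76), CCNG1 (-0.23) and PPM1D (-0.05) all overlapped between groups. MDM2 had 3.75, 3.12 and 3.71 FPKM in shCON and 2.62, 5.43 and 3.87 FPKM in shPAX6, so that the shPAX6 libraries alone spanned a wider range than all shCON libraries. The redox genes TP53I3 (0.17), SESN1 (-0.43), SESN2 (-0.09) and FDXR (-0.18) overlapped, as did ZMAT3 (0.17). GDF15 had 0.599, 0.545 and 0.50 FPKM in shCON and 0.620, 0.183 and 0.340 FPKM in shPAX6, under the filter, and SPATA18 and EDA2R were listed at 0 in every library.

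**Figure D3:**
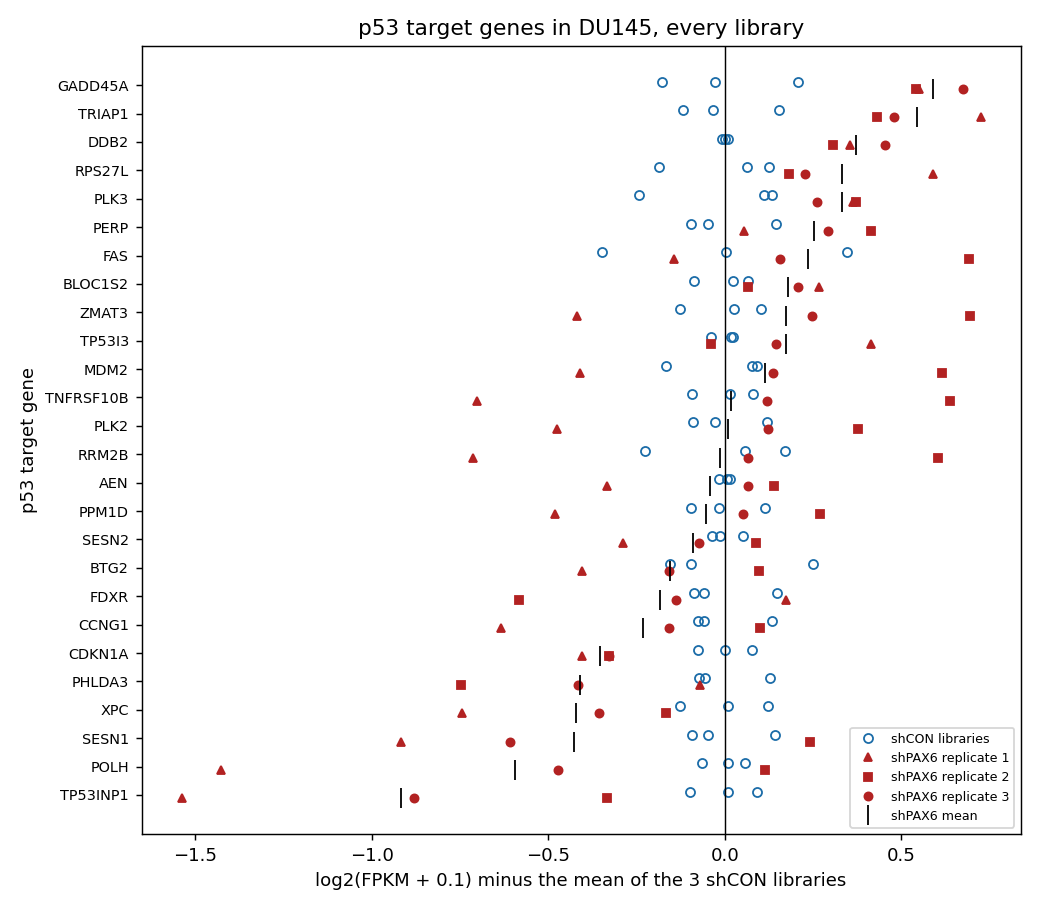
Log2(FPKM + 0.1) in each DU145 library, minus the mean of the 3 shCON libraries (x axis), for the 26 p53 target genes that passed the filter (y axis, ordered by fold change), with open circles for shCON, filled symbols for the shPAX6 replicates and black ticks for their mean. Replicate 1 (triangles) was the lowest shPAX6 value in 17 of the 26 genes and replicate 2 (squares) the highest in 17.

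The 3 shPAX6 libraries also differed among themselves. Replicate 1 was the lowest of them in 17 of the 26 targets (65.4%) and in 57.8% of all features, and replicate 2 the highest in 17 (65.4%) and in 50.5% of all features. TNFRSF10B shows the pattern, with 32.2, 81.6 and 56.9 FPKM in shPAX6 and 52.9, 49.1 and 55.4 FPKM in shCON. Without replicate 1, the groups lay apart for 12 of 26 targets that were higher (46.2%, beside 17.0% of all features) and 5 that were lower (19.2%, beside 26.4%), with a median log2 fold change of 0.15, beside -0.04 for all features. Without replicate 2, they lay apart for 7 of 27 that were higher (25.9%, beside 14.7%) and 8 that were lower (29.6%, beside 34.2%), and the median of -0.18 was near the -0.19 of all features. Over all features log2 fold changes fell with GC content (Spearman rho -0.36 across 12009 features), and over the 26 targets rho was -0.04. Genes are not independent replicates. The GC correction moved the median of the targets to 0.15 and that of all features to 0.02. It raised 6 targets by more than 0.25 on the log2 scale, CDKN1A, PHLDA3 (to -0.09), TP53I3 (to 0.50), SESN2 (to 0.24), PLK3 (to 0.67) and FDXR (to 0.17). BTG2, AEN, SESN2 and FDXR went from below 0 to above 0 under it. After it the groups of CDKN1A, XPC, RPS27L and BLOC1S2 overlapped, while those of PERP, AEN, TP53I3, CCNG1 and SESN1 came apart. Apart after it were 10 of the 26 targets, counting both directions, beside 27.9% of all features counted the same way. Of these targets 7 were higher (26.9% of the 26) and 3 lower (11.5%). The share of all features in each direction was not taken after the correction.

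Of the further p53 targets, 28 passed the filter and 1 was called, TP53I11, whose mean was 17.2 ± 1.04 FPKM over the shCON libraries and 8.81 ± 1.42 FPKM over the shPAX6 libraries (SD, n = 3 each, log2 fold change -0.97, limma, adjusted p = 0.045). Its adjusted p from limma was 0.22 when the label number entered as a block, a fit that called 0 of all features. After the GC correction its adjusted p from limma was 0.11. Of 15 regulators of p53 and 26 repressed cell cycle genes, limma called 0 and 0, with 1 and 2 at an unadjusted p under 0.05.

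Some of the targets stood at widely different levels in the LNCaP and DU145 libraries. Cell line, lentiviral hairpin, library preparation and data processing cannot be told apart in this comparison. Since the tables were made separately, each level was taken as a percentile among the expressed protein-coding genes of its own library (12200 in LNCaP and 11957 in DU145, by length-scaled values), and no test was made across lines. Over the 27 targets measured in either line, the median percentile was 61.5 in LNCaP and 51.4 in shCON. At least 20 points higher in LNCaP were 7 targets, GDF15, TP53INP1, BTG2, RPS27L, MDM2, SESN1 and CCNG1. At least 20 points higher in DU145 were 6, PLK2, PHLDA3, TP53I3, BLOC1S2, GADD45A and FAS, and 14 lay within 20 points. The share of all protein-coding genes that differed by 20 points was not computed, so these counts are not a trait of p53 targets.

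GDF15 stood at percentile 98.5 in LNCaP and at 1.52 (SD 0.50, n = 3) in shCON. PLK2 showed the reverse, at 6.63 in LNCaP and 84.8 (SD 1.30, n = 3) in shCON. TP53INP1 was at 75.9 and 3.43, and MDM2 at 62.8 and 27.1. By contrast DDB2 (73.0 and 70.9), XPC (50.1 and 51.0), FDXR (61.5 and 62.4) and TNFRSF10B (83.8 and 86.6) stood at nearly the same level in both lines. The 7 targets that were higher in LNCaP included 5 of the 12 that were at least 1.5-fold lower in LNCaP-ENZ, and the 6 that were higher in DU145 included 4 of them.

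**Figure D4:**
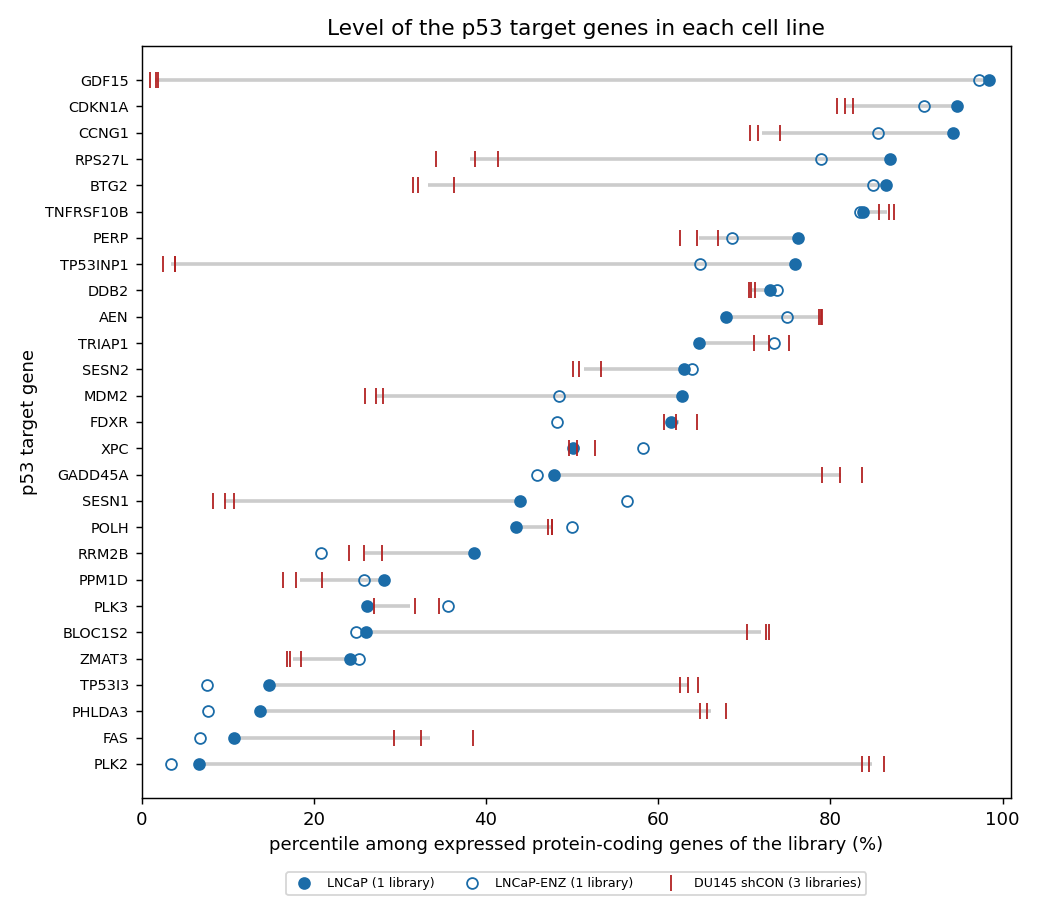
Percentile of each p53 target gene among the expressed protein-coding genes of its library (x axis, %) in LNCaP (filled circles), LNCaP-ENZ (open circles) and the 3 DU145 shCON libraries (red ticks), with grey bars from LNCaP to the shCON mean. GDF15 and TP53INP1 sit far to the right in LNCaP and near 0 in DU145, and PLK2 does the opposite.

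Set side by side, the contrasts are described by the side of 0 on which each target lay. The same counts were not made over all genes, so they are not read as a relation between the contrasts. Of the 26 targets measured in both contrasts, 9 were below 0 in both, 2 above 0 in both, 11 below 0 in LNCaP-ENZ and above 0 in shPAX6, and 4 the reverse. Of the 11 genes at least 1.5-fold lower in LNCaP-ENZ that were also tested in DU145, 6 were below 0 and 5 above 0 in shPAX6, and among them CDKN1A and TP53INP1 were the 2 whose shPAX6 values all lay under shCON. RPS27L was the 1 whose shPAX6 values all lay above. After the GC correction the groups of CDKN1A and RPS27L overlapped, while CCNG1 lay apart below shCON and TP53I3 above it.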

How the data were processed

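RNA from LNCaP, LNCaP-ENZ and 6 DU145 libraries was sequenced, and samples were grouped by their labels. The 6 ATAC-seq samples were not used here. By the paper's methods, reads were aligned to GRCh37 with HISAT2 and quantified with StringTie, and DESeq2 tested differential expression. The labels and the methods describe different library kits. The methods state 3 replicates per line, and the labels give 1 library for each LNCaP group. The authors deposited 2 kinds of value for LNCaP, unnormalized counts of each gene and TPM, in which counts are taken per length and scaled to a fixed library sum. For DU145 the deposited values, whose unit the table does not name, were treated as FPKM computed by the authors, so a count test was not used.

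LNCaP counts were scaled by library total to CPM and compared as log2 ratios of CPM + 0.1 for genes with a mean of at least 1 CPM, with exact 95% Clopper-Pearson intervals that cover counting error only. The totals set their precision, and 3 counts were taken as the floor. DU145 values were tested with limma 3.58.1 in R 4.3.3 (lmFit and trended eBayes) after adding 0.1 to the FPKM and taking log2, which shrinks fold changes of weakly expressed genes. Features averaging 0.5 FPKM or more were tested, two-sided, with Benjamini-Hochberg adjustment over all 13574 features and a threshold of 0.05. Scaling factors came from edgeR 4.0.16 (TMM) and DESeq2 1.42.0. GC correction was a loess fit (span 0.5, degree 2) in each library. Sites were searched with Python 3.11.15 in GRCh37 around the starts in the authors' table, with exons from the annotation lifted to GRCh37. The main DU145 fit and the LNCaP ratio with its counting interval were tested on simulated data. The site search, the GC correction and the other settings were not.

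The 29 genes and the other gene lists were chosen with earlier results of these data known. All 29 are named, with MDM4 and PAX6, and of each further list up to 3 genes a direction with the largest change among those called (LNCaP, 1.5-fold; DU145, adjusted p under 0.05). RN7SK, DINOL and the other overlapping genes, and the marker genes named, were added after their values were seen. Some genes of these lists are not reported here.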

Additional observations from a re-analysis of the deposited data

How the results depend on the processing

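Settings tried in LNCaP were pseudocounts of 1 and 0.01, edgeR's TMM factors, DESeq2's size factors and a median of all genes set to 0. The authors' TPM, a mean of at least 5 CPM and no filter were tried too. Under these, 8 to 14 of the targets were at least 1.5-fold lower, where 16.8% to 28.6% of all genes were. The 8 were of the 23 targets with a mean of at least 5 CPM. The targets' median log2 ratio lay between -0.62 and -0.34, and that of all genes between -0.23 and 0.02. A fold of 2 left 6 lower (22.2%), beside 9.57% of all genes. The number of targets at least 1.5-fold higher went from 0 to 1 with TMM, beside 1601 of the 14767 genes. It went to 2 with DESeq2's size factors, beside 1755 genes, and to 2 with the median set to 0, beside 1670. With no filter it was 1, SPATA18 with 1 count, beside 4573 of 27475 genes. A counting interval above 0 was found for 4 targets (14.8%), beside 21.6% of all genes. In DU145, the number of targets past the limma adjusted p of 0.05 was 0 under the other pseudocounts, filters, scalings, GC correction and trend setting, and an adjusted p of 0.1 gave 1, GADD45A, with 4.34% of all features past it. Leaving out each library gave 0 to 1 calls, 9 to 17 targets with groups apart, where 30.0% to 48.9% of all features were, and a median log2 fold change of -0.18 to 0.15, where that of all features was -0.19 to -0.04. The highest counts and shares, and both ends of each median, came from leaving out shPAX6 replicate 1 or 2.

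Same-numbered shCON and shPAX6 libraries had correlated deviations of -0.17, -0.37 and 0.05, so the numbers do not pair the libraries. With the replicate block, 0 targets passed (0 of all features), and 0 with the GC correction and the replicate block together (7 of all features). No target was called in the main DU145 fit, so single called values had no alternatives to compare. Depth limits EDA2R, SPATA18, PLK2, TP53I3, PHLDA3 and FAS in LNCaP, and DU145 depth is unknown.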
